A study of Drosophila melanogaster with 40 samples.

Results

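The transcripts described here are the 150 whose total level over a polysome gradient was highest in embryos of *smaug* (*smg*) mutant mothers relative to wild type, out of 6524 transcripts on the arrays. Transcripts were first kept if their mean level over all 40 arrays reached the 25th percentile, a log2 level of 11.16, which left 4893. For each gradient the linear levels of the 4 pools were added, the sum was put on the log2 scale, and the median of the gradient over all 6524 transcripts was subtracted. This quantity is called the summed level. The 150 kept transcripts with the largest mean of the 3 *smg* gradients minus the mean of the 3 wild-type gradients were taken. All 150 therefore passed the filter on low levels, and the *smg* to wild-type difference in summed level was what chose them. Other *smg* to wild-type measures come from the same arrays. Both are described for the members with no test.

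Smaug is an RNA-binding protein that is made after egg activation and binds stem-loops in maternal mRNAs. It represses their translation through partners such as Cup, which binds the cap-binding protein eIF4E, and it brings the CCR4/NOT deadenylase to them, so that they are degraded. In a polysome gradient free mRNA stays near the top, while mRNA carrying several ribosomes sediments toward the bottom. Puromycin ends nascent chains and so frees translated mRNA of its ribosomes, and cycloheximide freezes ribosomes on the mRNA.

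The embryos were 0 to 2 h old. Each of the 10 gradients was divided into pool 1 (top, free mRNA), pool 2, and pools 3 and 4 (polysomes, pool 4 at the bottom), with a separate array for each pool. The *smg* gradients (n = 3) were of embryos from mothers homozygous for the smaug1 allele, and the wild-type gradients (n = 3) of embryos from W1118 mothers. Puromycin (n = 2) and cycloheximide (n = 2) were each added to a part of split lysates of smaug1 embryos made in a different lysis buffer and warmed before centrifugation. All 4 drug gradients thus carried the *smg* mutation, a single allele, and there was no wild-type drug gradient. Cy5 was used for *smg* replicate 1, wild-type replicates 2 and 3, cycloheximide replicate 1 and puromycin replicate 2, and Cy3 for the other gradients. The arrays give no count of embryos or cells, so a different number of cells and a different amount of RNA per cell cannot be told apart.

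Array medians ranged from a log2 level of 9.98 to 14.1, and gradient medians of the summed level before centring from 13.71 to 15.03. Across the 6524 transcripts, which are not independent observations, the summed level correlated between replicates at r = 0.72 to 0.87 in *smg*, 0.76 to 0.89 in wild type and 0.95 in each drug. Transcripts carry identifiers in place of gene names, and 35 of the 6524 could be given a symbol from the gene table, 1 of them a member. None of 13 Smaug partners and known targets, 8 maternal mRNAs or 8 early zygotic mRNAs was among the named transcripts, so these lists were void and could not be used to check the stage of the embryos.

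The 150 transcripts were higher in *smg* embryos by a median of 0.88 on the log2 scale, with a range from 0.73 to 2.04. The values at the edge of the list lay close together, at 0.734 and 0.733 for the last 2 transcripts inside it and 0.731 and 0.730 for the first 2 outside. The members were not unusually abundant. Their mean log2 level had a median of 12.18 against 12.28 for all kept transcripts, and across the 150 it had almost no linear relation to the size of the difference (r = -0.04, rho = -0.03).

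The median summed level of the 150 was 0.22, 0.78 and 0.89 in *smg* replicates 1, 2 and 3, and -0.34, -0.23 and -0.29 in wild-type replicates 1, 2 and 3. Kept transcripts as a whole had medians between 0.31 and 0.38 in the same 6 gradients, so the members stood below the typical kept transcript in each wild-type gradient and above it in *smg* replicates 2 and 3 only. *smg* replicate 1 was the lowest of the 3 *smg* gradients for 109 members. The median SD over members was 0.42 in *smg* and 0.38 in wild type (n = 3 each), and 0.38 and 0.31 over kept transcripts. Same-numbered gradients of the 2 genotypes deviated together. Within the 3 pairs the members' median difference was 0.64, 1.00 and 1.16, and 148 of the 150 were higher in *smg* in every pair, against 20.1% of kept transcripts.

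**Figure D1:**
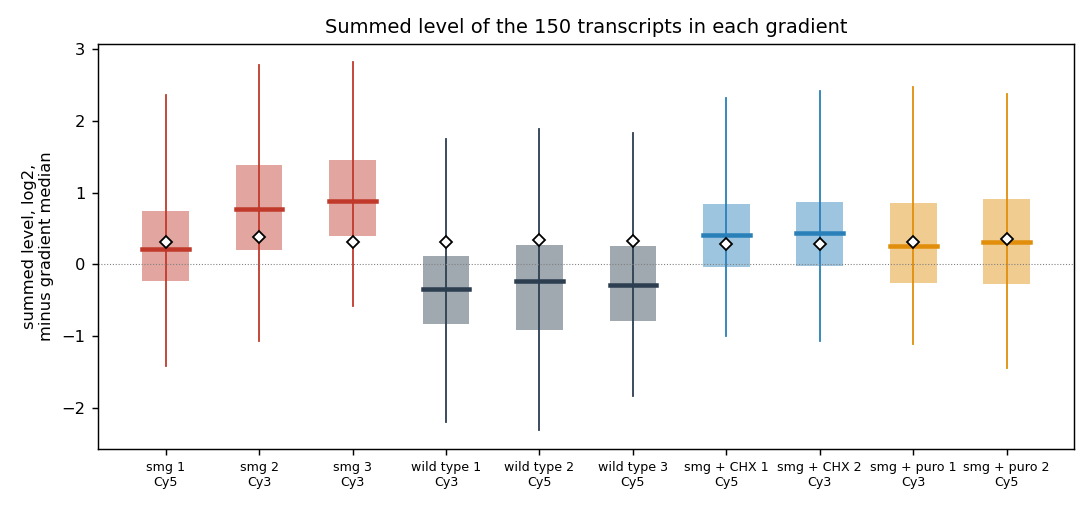
Summed level (log2, minus the gradient median) of the 150 transcripts in each of the 10 gradients, with the dye of each. Thick lines are medians, boxes span the quartiles, thin lines the whole range, and white diamonds are the medians of all 4893 kept transcripts. The wild-type medians lie between -0.34 and -0.23 and those of the 7 gradients of *smg* embryos between 0.22 and 0.89.

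For 86 of the 150, all 3 *smg* gradients lay above all 3 wild-type gradients, against 6.17% of kept transcripts. The reverse order held for 0 members and 5.09% of kept transcripts. These counts come from the contrast that chose the members. The other 64 overlapped between genotypes, and 62 of these were higher in *smg* in every pair. *smg* replicate 1 lay above all wild-type gradients for 99 members (27.6% of kept transcripts), replicate 2 for 140 (31.4%) and replicate 3 for 142 (31.5%). *smg* replicate 1 was also the only *smg* gradient labelled with Cy5. Within Cy5 the median difference of the members was 0.54 and 117 were higher in *smg*, against 45.8% of kept transcripts. Within Cy3 it was 1.25 and 142 were higher (54.5%), and 109 were higher within both dyes (15.7%). In the drug gradients, where dye was balanced over drug, the median Cy3 minus Cy5 difference was 0.03 in the members (quartiles -0.16 and 0.16) and 0.01 in kept transcripts, from 2 gradients of each dye. The part of dye in the *smg* to wild-type difference was not tested beyond this. No transcript of the 6524 differed between dyes in that fit (limma, Benjamini-Hochberg adjustment), with 0 members above and 2 below in Cy3 when p was not adjusted (limma, 0.05), where 24 and 96 of all transcripts were. As background over all 6524 transcripts, no summed level differed between genotypes at the threshold in limma (without adjustment 181 were higher and 139 lower). When the replicate number was added as a block, 63 were called higher and 48 lower.

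The excess lay mainly in pool 3, the lighter polysomes. With linear levels scaled to the median of each gradient, pool 3 held a median of 71.3% of the *smg* minus wild-type difference of a member. Pool 4 held 17.4% and pool 2 held 16.2%, whereas pool 1 gave -9.65%, that is, on this scale the members' free mRNA was lower in *smg*. The largest part of the excess was in pool 3 for 130 of the 150 transcripts, in pool 2 for 14 and in pool 1 for 6, and pool 4 led for 0. Pool 3 also led for 77.6% of the 2465 kept transcripts with any excess in *smg*, and for 88.7% of the next 150 in rank. The median share in pool 3 was larger in these sets than in the members, at 109% and 84.1%. The median share in pool 1 was further below 0 in them, at -24.9% and -19.7%. In pool 4 the median share was 17.4% in the members, 17.6% in the next 150 and 1.27% in the 2465. A positive difference was found in pool 3 for all 150 members (94.9% of the 2465), in pool 4 for 142 (50.5%), in pool 2 for 136 (83.3%) and in pool 1 for 42 (29.6%).

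Each *smg* gradient showed the excess in pool 3 when set against the wild-type mean. Of the members' summed excess pool 3 held 60.1% in replicate 1, 79.2% in replicate 2 and 76.3% in replicate 3. Pool 4 was more variable and held 15.8%, 3.13% and 34.2%. Pool 1 gave 2.16%, -8.12% and -18.2%. Replicate 1, with the smallest total excess, was also the gradient in which pool 1 led most often, for 26 of the 128 members that were above the wild-type mean there.

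The levels of the single pools are the parts of the sum that chose the members, and they were scaled by the same gradient medians. Pool 3 again differed most. On the log2 scale the median *smg* minus wild-type difference of the members was 2.12 for pool 3. It was 0.84 for pool 2, 0.74 for pool 4 and -0.44 for pool 1. All kept transcripts had medians of -0.67, 0.33, 0.70 and -0.44 from pool 1 to pool 4, so that in pool 4 the members were higher in *smg* while the typical kept transcript was lower. In pool 3 all 3 *smg* gradients lay above all 3 wild-type gradients for 122 members (28.7% of kept transcripts did so). In pool 2 this held for 67 members (11.4%), in pool 4 for 55 (2.84%) and in pool 1 for 4 (0.388%).

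**Figure D2:**
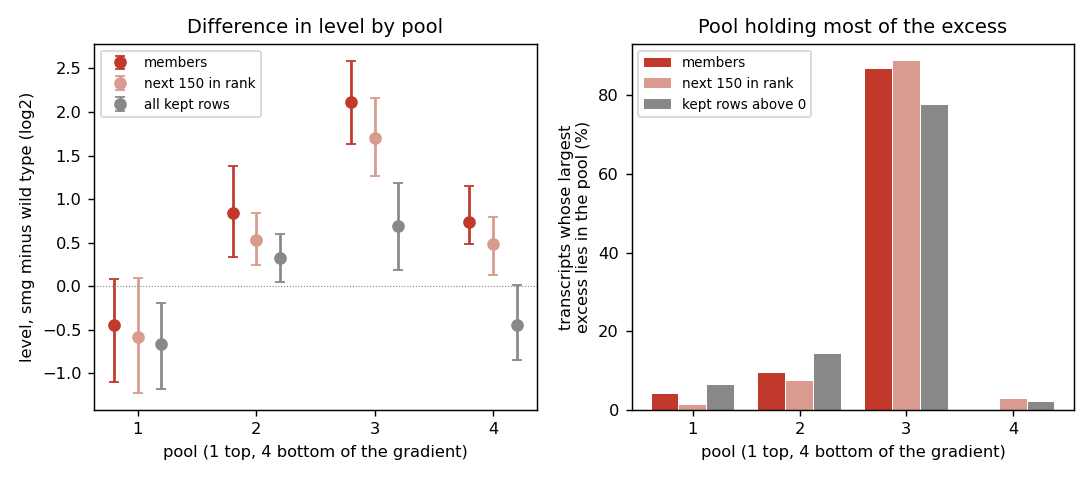
Left, *smg* minus wild-type difference in log2 level by pool, as the median with quartile bars for the 150 transcripts, the next 150 in rank and all 4893 kept transcripts. Right, share of transcripts whose largest excess in *smg* lies in each pool, for the same 2 lists and the 2465 kept transcripts with an excess. The members reach 2.12 in pool 3, and pool 3 leads for 86.7% of them.

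These values depend on how the pools are scaled to each other. Part of the difference in pool 3 was common to the whole array, as the median of all kept transcripts shows. Relative to the median of its own array, the members' median level in pool 3 was 1.11 ± 0.44 in *smg* and -0.30 ± 0.22 in wild type (SD, n = 3 each). In pool 4 it was 0.61 ± 0.33 in *smg* and -0.52 ± 0.08 in wild type. In pool 2 the values were 0.56 ± 0.25 and 0.02 ± 0.16, and in pool 1 they were 0.22 ± 0.09 and 0.01 ± 0.17. On this relative scale the genotypes thus differed by 1.41 in pool 3 and by 1.13 in pool 4, against 0.21 in pool 1. When arrays were centred within pools before summing, 109 of the 150 were chosen again. Without this centring the median share of the excess in pools 3 and 4 together was 93.8% in the members. It was 106% in the next 150 in rank and 97.0% in the 2465 kept transcripts with any excess. In the list chosen with arrays centred within pools it was 49.5%. Pool 3 then led for 69 of the 150 transcripts chosen and pool 1 for 60.

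The members also took a different position in the gradient in the 2 genotypes. In wild type the median share of a member's summed level in pool 1 was 30.8%, 51.2% and 37.0% in replicates 1, 2 and 3, and in pool 3 it was 22.7%, 15.1% and 18.8%. In *smg* the share in pool 1 was 26.6%, 13.9% and 7.41%, and that in pool 3 was 32.2%, 48.5% and 49.8%. The groups did not overlap in either pool. Much of the shift in pool 3 was common to all kept transcripts, whose median share there was 15.1% to 25.8% in wild type and 27.0% to 40.4% in *smg*. In pool 1 the kept transcripts overlapped, with 25.8% to 39.3% in wild type and 9.63% to 32.7% in *smg*. In pool 4 the members' shares overlapped between genotypes, with 18.2% to 23.3% in wild type and 11.7% to 26.7% in *smg*.

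The translation index (TI), the mean log2 level of pools 3 and 4 minus that of pool 1, summarises this position. The members' median TI was -0.44, -1.64 and -0.95 in wild type, below the kept transcripts at 0.13, -0.88 and -0.38 in the same gradients. In *smg* it was -0.11, 0.74 and 2.31, above the kept transcripts at -0.49, -0.04 and 1.92. Set among the kept transcripts of its own gradient, the median member stood at the 34.3, 27.5 and 31.1 percentile in wild type and at the 62.3, 71.1 and 58.5 percentile in *smg*. The members thus lay on the ribosome-poor side in wild type and on the polysomal side in *smg*. The next 150 in rank did so almost equally, so this was not particular to the members. Their median TI was -0.36, -1.49 and -0.88 in wild type and -0.09, 0.68 and 2.30 in *smg*. The members had been chosen on summed level and not on TI, but both measures come from the same arrays.

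**Figure D3:**
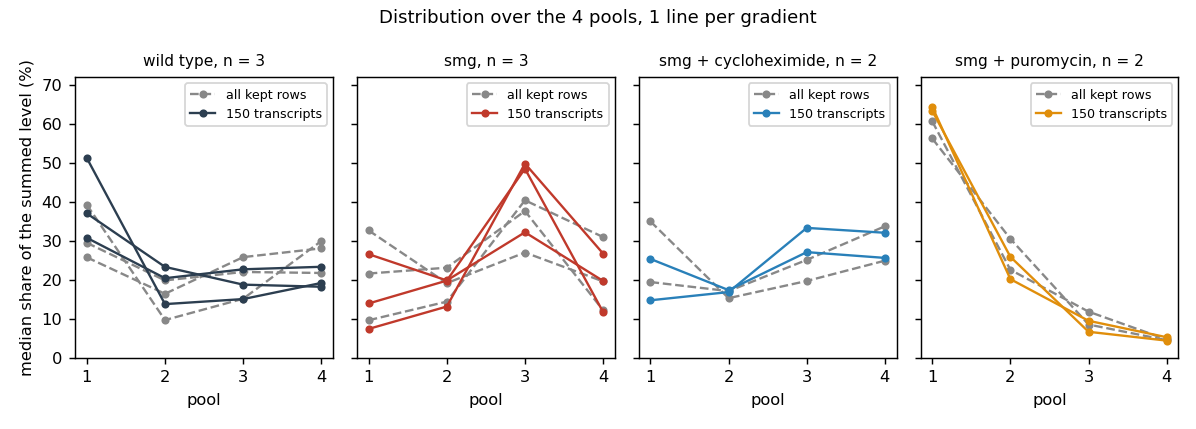
Median share (%) of the summed level found in each of the 4 pools, with a line for each gradient, for the 150 transcripts (solid, coloured) and all 4893 kept transcripts (dashed, grey). The members' share in pool 1 is 30.8% to 51.2% in wild type, 7.41% to 26.6% in *smg*, 14.8% to 25.4% with cycloheximide and 63.4% to 64.4% with puromycin.

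Members differed among themselves in where their excess lay. The 130 whose largest part lay in pool 3 had a median TI of -0.90 in wild type and 1.24 in *smg*, and the 14 whose largest part lay in pool 2 had -1.75 and -0.89. The 6 led by pool 1 went the other way, with -0.11 in wild type and -0.65 in *smg*. The grouping and the TI use the same pools of the same 6 gradients, so these directions largely follow from the grouping. The 3 kinds had similar differences in summed level, with medians of 0.87, 0.93 and 0.81, but those led by pool 2 or pool 1 had lower mean log2 levels, 11.73 and 11.69 against 12.24. Across the 150, the share of the excess in pool 3 was larger in transcripts with a higher TI in cycloheximide gradients (r = 0.63, rho = 0.67). The points share the *smg* genotype but no gradient, and transcripts are not independent replicates.

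The cycloheximide and puromycin gradients were made from further lysates of smaug1 embryos. Their arrays entered the filter on low levels, which used the mean over all arrays, but not the ranking by *smg* to wild-type difference. The members' median summed level was 0.42 and 0.43 in cycloheximide replicates 1 and 2 and 0.26 and 0.32 in puromycin replicates 1 and 2. All 4 medians lay above those of the 3 wild-type gradients. Both cycloheximide gradients lay above all 3 wild-type gradients for 109 of the 150 members (14.6% of kept transcripts did so), both puromycin gradients for 91 (19.7%) and all 4 for 79 (9.67%). The next 150 in rank gave 84, 80 and 65. The wild-type gradients are the ones used in the ranking, so both comparisons share them. The lysis buffer and warming cannot be told apart from the genotype here.

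Cycloheximide gradients exceeded the wild-type mean by a median of 0.72 in the members and puromycin gradients by 0.63, where kept transcripts gave -0.03 and 0.03. These values and the next are measured from the wild-type means that chose the members, so the kept transcripts are not a no-change value for them. Of its *smg* to wild-type difference the median member reached 77.0% with cycloheximide and 69.4% with puromycin. For 117 members the cycloheximide mean was nearer to *smg* than to wild type, and for 6 it was below the wild-type mean. Across the 150 the size of the difference had little relation to the cycloheximide level (r = 0.06, rho = 0.06).

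The excess of the cycloheximide gradients over wild type was again polysomal, though more evenly split between pools 3 and 4. Pool 3 held 60.1% and 41.3% of the members' summed excess in replicates 1 and 2, and pool 4 held 55.0% and 35.6%. In the puromycin gradients the excess lay in pool 1, with 114% and 102%, and the parts in pools 3 and 4 were negative. Kept transcripts as a whole also lay mostly in pool 1 there. Their mean share in it was 58.5% with puromycin and 31.5% in wild type, against 63.9% and 39.7% in the members.

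The question put by the puromycin gradients was whether mRNA at the bottom of the gradient was there because of translation. The members' median TI was 1.13 and 0.07 with cycloheximide and -3.25 and -3.49 with puromycin. The TI was lower with puromycin in all 150, as in 99.6% of all transcripts, with a median change of -4.15 against -3.00 over all transcripts, and 143 of the 150 passed the test (limma, adjusted p under 0.05 over all 6524 transcripts). The background was high, since 80.3% of all transcripts passed as lower. No member was called higher, where 0.0153% of all transcripts were. Relative to the kept transcripts of the same gradient, members were high in the cycloheximide gradients, at the 63.1 and 70.1 percentile, and low in the puromycin gradients, at the 41.9 and 32.2 percentile. With each gradient centred on its median TI the members' median change was -1.12 against 0.03 over all transcripts. Then 19 members were called lower, where 7.48% of all transcripts were, and 1 was called higher. The share of the summed level in pool 1 was 14.8% and 25.4% with cycloheximide and 64.4% and 63.4% with puromycin. In pool 3 it was 33.3% and 27.1%, and 9.49% and 6.67%.

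The ratio of pool 4 to pool 3 shifted less on the deposited scale in the members than in most transcripts. Its members' median log2 value was -0.13 and -0.14 with cycloheximide and -0.82 and -0.50 with puromycin, whereas the kept transcripts went from 0.36 and 0.31 to -1.34 and -0.91. Relative to pool 4, the members therefore lay more in pool 3 than most transcripts with cycloheximide, and less than most with puromycin. Among the kept transcripts the median member's ratio stood at the 23.4 and 25.9 percentile with cycloheximide. With puromycin it stood at the 71.5 and 78.1 percentile. Of the 150, 34 were lower with puromycin where 52% of all transcripts were, and 6 were higher where 0.736% were (limma, adjusted p under 0.05). The median change was -0.57 in the members and -1.58 over all transcripts. The replicate number as a block pairs parts of the same lysate if the numbers follow the lysates. With it 21 members were lower, where 39.9% of all transcripts were, and 0 were higher. With gradients centred 5 were lower, where 14% of all transcripts were, and 50 were higher. The median change was then 0.94 in the members and -0.07 over all transcripts, so its direction depends on whether the common shift is removed. Without cycloheximide replicate 1, or without replicate 2, 0 members and 0 of all transcripts were called. Without puromycin replicate 2 there were 76 members lower, with 77.4% of all transcripts called.

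**Figure D4:**
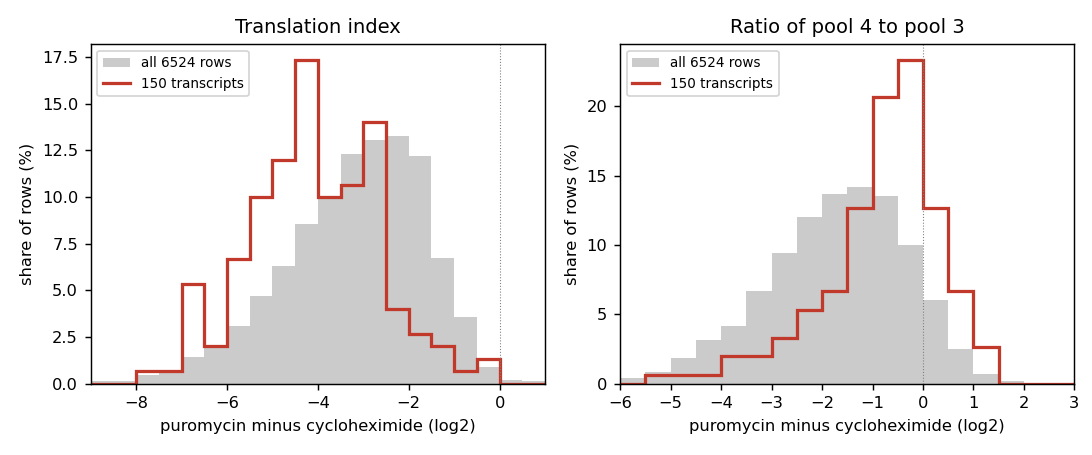
Change with puromycin relative to cycloheximide (log2, mean of 2 gradients minus mean of 2) in the translation index (left) and in the ratio of pool 4 to pool 3 (right), as the share of transcripts (%) in bins of 0.5. The 150 transcripts (red line) have a median of -4.15 on the left, lower than all 6524 (grey, -3.00), and of -0.57 on the right, nearer to 0 than all transcripts (-1.58).

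The total itself did not move with the drug at the threshold. The members' median change in summed level was -0.11, and 0 of the 150 and 0 of all 6524 transcripts passed (limma). Without adjustment 6 members were higher and 7 lower with puromycin (limma, p under 0.05), 4.0% and 4.67% beside 3.65% and 4.63% of all transcripts. The median SD over members was 0.13 with cycloheximide and 0.20 with puromycin (n = 2 each), less than between untreated replicates. Kept transcripts as a whole gave 0.15 and 0.16, also less than untreated. An SD of 2 gradients is not directly comparable with an SD of 3.

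Single transcripts show the pattern. The member with the largest difference, 2.04, was FBtr0083616. Its summed level was 0.22, 0.12 and 1.20 in *smg* replicates 1, 2 and 3 and -1.57, -1.38 and -1.63 in wild type. It was 0.40 and 0.30 with cycloheximide and 0.45 and 0.22 with puromycin. The wild-type gradients were alike and far below all 7 gradients of *smg* embryos, among which *smg* replicate 3 was the highest. In pool 3 its log2 level was 12.80, 13.25 and 14.66 in *smg* and 10.72, 11.22 and 11.45 in wild type. In pool 1 it was 10.59, 10.62 and 11.11 in *smg* and 9.33, 11.42 and 10.78 in wild type, so the genotypes overlapped there. Its TI fell by 5.53 with puromycin (SE 0.69, adjusted p = 0.00134, limma).

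The second was FBtr0086674, with a difference of 1.89. Its summed level was 0.71, 1.74 and 1.61 in *smg* and -0.73, -0.49 and -0.38 in wild type, and between 1.05 and 1.40 in the 4 drug gradients. Here too the gradients of *smg* embryos were all above wild type, and *smg* replicate 1 was the lowest of them. Pool 1 held 43.9%, 68.1% and 64.0% of it in wild type and 30.6%, 15.8% and 13.2% in *smg*, and pool 3 went from 22.7%, 15.8% and 17.8% to 36.4%, 53.5% and 52.0%. Pool 1 was the largest in each wild-type gradient and pool 3 in each *smg* gradient. With puromycin its TI fell by 5.98 (SE 0.64, adjusted p = 0.00125, limma) and pool 1 held 78.9% and 68.9%. FBtr0083616 and FBtr0086674 were both among the 6 members whose ratio of pool 4 to pool 3 was higher with puromycin (limma adjusted p = 0.0365 and 0.0334).

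**Figure D5:**
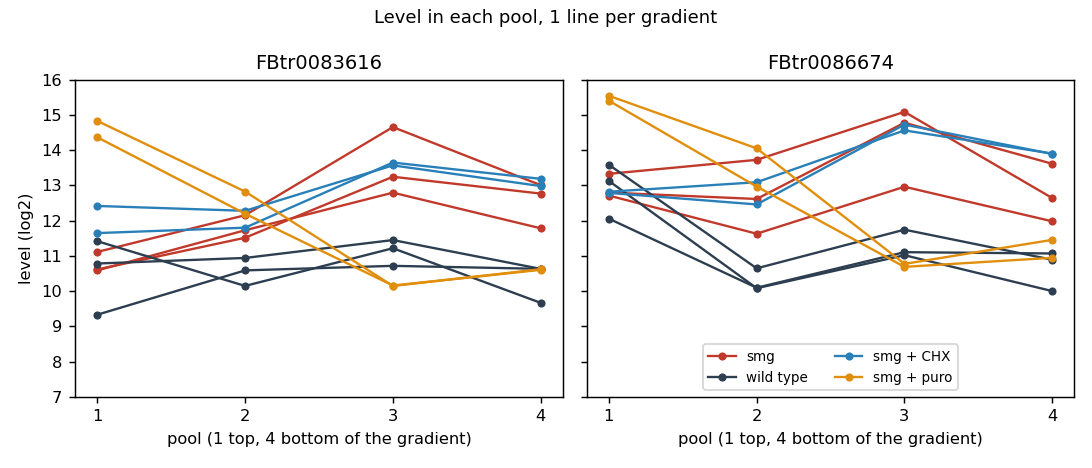
Log2 level of the 2 transcripts with the largest *smg* to wild-type difference in pools 1 to 4, with a line for each gradient. In pool 3 the 3 *smg* and 2 cycloheximide gradients lie above the 3 wild-type gradients in both panels, and with puromycin the level is highest in pool 1.

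The members whose TI fell most with puromycin were FBtr0078012 and FBtr0080398. For FBtr0078012 the TI was 3.18 and 3.82 with cycloheximide and -4.94 and -3.85 with puromycin, a change of -7.89 (SE 0.72, adjusted p = 0.00125, limma). It differed from most members in the place it held with cycloheximide and in wild type. Pool 4 held 55.1% and 61.0% of it with cycloheximide, and its TI in wild type was already 0.54, 2.53 and 2.79. In untreated *smg* gradients pool 4 held 32.5%, 12.8% and 46.4% of it, and pool 3 held 36.5%, 82.6% and 45.1%. Its summed level was 0.64, 0.40 and 0.87 in *smg* and 0.37, -0.96 and 0.14 in wild type, so the difference of 0.79 rested largely on wild-type replicate 2. For FBtr0080398 the TI was 3.35 and 1.90 with cycloheximide and -4.76 and -4.46 with puromycin, a change of -7.23 (SE 0.75, adjusted p = 0.00125, limma). Its TI was 0.17, -0.84 and -0.38 in wild type and 1.50, 1.28 and 3.88 in *smg*, with no overlap.

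The 1 member with a gene symbol was FBtr0085563, a transcript that the gene table lists under both CG7950 and Rpp14a. Rpp14a is named for a protein subunit of ribonuclease P, the enzyme that trims the leading end of precursor tRNAs. It ranked 98 with a difference of 0.82. Its summed level was 0.21, 0.16 and 0.14 in *smg* and -0.64, -0.74 and -0.57 in wild type, with the smallest spread of the 5 transcripts given by name. In the puromycin gradients, but not with cycloheximide, it stood apart from most members. Its summed level was -0.13 and -0.26 with cycloheximide, between the genotypes, and -0.59 and -0.70 with puromycin, within the wild-type range. Pool 3 held 30.1%, 45.1% and 49.5% of it in *smg* and 22.2%, 20.6% and 16.2% in wild type. Its TI fell by 3.16 with puromycin (SE 0.69, adjusted p = 0.0061, limma), close to the median of all transcripts. The other 34 transcripts with a symbol were outside the list. Replicates are described as biological, but nothing says how many mothers or collections each held, and 2 or 3 gradients per group limit the precision of all of these values.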

How the data were processed

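RNA of 4 pools from each of 10 polysome gradients (pools of 4, 2, 3 and 3 mL) was hybridised in 1 channel, Cy3 or Cy5, of custom arrays. The deposited log2 values number 1 for each transcript and array. The authors normalised them by RMA and then transformed each array linearly, by a slope and an offset fitted on Arabidopsis RNA added in a fixed amount to each pool. The log base is taken as 2, as RMA gives. An error in the spike-in of 1 array would move all its transcripts together. Probe background was not analysed here.

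Groups, replicates and dyes came from the sample labels. Members were chosen by the rule stated in the report, and the members and gene lists were chosen with earlier results of these data known. TI, the ratio of pool 4 to pool 3 and the summed level were compared between drugs with limma 3.58.1 in R 4.3.3 (lmFit, eBayes, 1 value per gradient, Benjamini-Hochberg over 6524 transcripts, threshold 0.05), which was also tested on simulated data. Other steps used Python 3.11.15. Named transcripts were those with a symbol, the 2 with the largest difference and no overlap, and the 2 with the largest significant TI fall. Symbols came from RefSeq names of assembly Release 6 plus ISO1 MT.

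Same-numbered *smg* and wild-type gradients deviated together in summed level (r = 0.80, 0.55 and 0.39 over 6524 transcripts), so the replicate block was used as an alternative. The pairing of *smg* with wild type comes from these correlations and is not stated in the labels. The methods state that the drug lysates were split, and same-numbered drug gradients correlated at r = 0.22. Other alternatives were the filter, centring, dye, eBayes settings and each replicate left out. The block, dye and filter for the *smg* to wild-type comparison were chosen after seeing the data.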

Additional observations from a re-analysis of the deposited data

How the results depend on the processing

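Of the 150 transcripts, 87 were chosen again with no filter on low levels, 97 with the mean of the 4 log2 levels in place of the sum, and 88 to 115 when 1 *smg* or wild-type replicate was left out, with 88 without wild-type replicate 1. The median difference of the 150 chosen anew under each alternative moved by less than the spread between replicates. That is partly fixed by the choice, since each list again holds the 150 largest differences. In the lists chosen anew, the median share of the excess in pools 3 and 4 was 49.5% with arrays centred within pools. It was 63.8% to 101% with 1 replicate left out, lowest without *smg* replicate 3. The replicate block does not change the members, since the difference of means is the same (150 shared).

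In the drug gradients, members with a lower TI numbered 92 to 146 with 1 gradient left out (92 without puromycin replicate 2 and 100 without replicate 1) and 19 with gradients centred. With the replicate block there were 143 again, beside 85.6% of all transcripts. Those with a lower ratio of pool 4 to pool 3 numbered 21 with the replicate block, 5 with gradients centred and 0 to 76 with 1 gradient left out. In summed level 1 member was called lower with the replicate block, where 1.47% of all transcripts were called in either direction. Between genotypes the block, added after seeing the data, called 111 transcripts, and the cause was not tested in any of these cases. The dye comparison with the replicate block was not run, as it leaves 0 residual degrees of freedom. Leaving out a drug gradient leaves 1 in that group, which is then assumed to vary like the other. A count was held the same within 1.5 times its value, and a median within 1 SD over the 3 *smg* gradients (0.35 for the difference and 19.8 percentage points for the share). By these wide limits 50 of 64 alternative values were the same and 14 moved.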
